A study of Rattus norvegicus with 23 samples.

Results

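Cathepsins are proteases, most of which work inside lysosomes and endosomes. The 9 cathepsin genes described here, Ctsa, Ctsb, Ctsc, Ctsd, Ctse, Ctsk, Ctsl, Ctss and Ctsz, were taken by gene symbol from a table of 19249 genes measured by RNA sequencing in rat lung. All 9 were found, and all 9 passed the filter for testing, a mean of at least 10 normalized counts over 22 libraries, which 14414 genes passed. Male rats breathed filtered air (7 libraries), a low concentration of eucalyptus wood smoke with a target of 10 ppm carbon monoxide (8 libraries) or a high concentration with a target of 20 ppm (7 libraries). Exposure was of the whole body, on 4 days in the first week and, after a break of 3 days, on 3 days in the second week. The labels name neither strain nor age. RNA came from a piece of whole lung, so a difference can come from the number of cells of a type or from the RNA in each cell, and these cannot be told apart here.

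Cathepsins are made as inactive precursors, tagged with mannose 6-phosphate in the Golgi, carried to endosomes and activated by cleavage at low pH. Most are cysteine proteases, held in check by cystatins. Cathepsins D and E are aspartic proteases and cathepsin A is a serine carboxypeptidase. In the lung they are known from alveolar macrophages, which digest inhaled material, from antigen-presenting cells, where cathepsin S trims the invariant chain of class II molecules, and from alveolar type 2 cells, where cathepsin H and napsin A take part in processing surfactant proteins.

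The libraries held the equivalent of 8484131 to 12055527 reads each. In a principal component analysis of the tested genes, high smoke replicates 1, 3 and 7 stood apart on the first component, with scores of 51.5, 41.7 and 36.5. The other high smoke libraries scored 0.305 to 8.77, the low smoke libraries −12.7 to −1.81 and the air libraries −21.6 to −0.291. Within low smoke, replicates 1 to 4 scored −12.7 to −10.3 and replicates 5 to 8 scored −3.4 to −1.81. The first component held 19.7% of the variance, and on the second, with 9.07%, air replicate 3 had the highest score, 44.6. The labels give no batch or other technical difference for these libraries, so results on high smoke are given below with and without replicates 1, 3 and 7. Markers of lung tissue were present throughout. The summed normalized counts of 10 alveolar type 2 markers ranged over 239800 to 301800 in the air group, 229400 to 318000 in the low smoke group and 293500 to 363000 in the high smoke group.

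In high smoke against air, 3 of the 9 cathepsins rose and none fell: Ctsc, Ctsl and Ctss (limma, Benjamini-Hochberg adjusted p below 0.05 over all 14414 genes). That is 33.3% of the cathepsins, beside 16.3% of all genes tested that passed in either direction, 9.21% higher and 7.05% lower. The log2 differences of the 9 had a median of 0.13 and a range of −0.07 to 0.47, and 7 were above 0 (6 under each of 3 other scalings, where Ctsd lay just below 0), while the median over all genes was −0.00209. In low smoke against air no cathepsin passed. In high smoke against low smoke Ctsc and Ctss rose. No cathepsin passed in any comparison without high smoke replicates 1, 3 and 7. Of all genes tested, 0.861% then passed in high smoke against air, 0% in high smoke against low smoke and 0.00695% in low smoke against air. The 3 libraries were picked from these same values, and leaving them out also leaves fewer high smoke libraries.

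The promoters of the 3 genes that rose in high smoke are shown with that of Ctsd, whose log2 difference between high smoke and air lay closest to 0. Each runs from 250 bases before the transcription start to 50 bases after it, 5′ to 3′ on the gene's strand, and comes from RefSeq on build GRCr8. Capitals mark matches on either strand to TGACNNNGC, an antioxidant-response type motif, to CACGTG, the core of the element bound by the lysosomal regulators TFEB and TFE3, or to GAAANN directly followed by GAAA, the core of interferon-stimulated response elements. The last motif was picked after the sequences had been seen. The windows lie at chr1:151440799-151441098 on the plus strand for Ctsc, chr17:769854-770153 on the plus strand for Ctsl, chr2:185775146-185775445 on the plus strand for Ctss, and chr1:206968772-206969071 on the minus strand for Ctsd.
Ctsc: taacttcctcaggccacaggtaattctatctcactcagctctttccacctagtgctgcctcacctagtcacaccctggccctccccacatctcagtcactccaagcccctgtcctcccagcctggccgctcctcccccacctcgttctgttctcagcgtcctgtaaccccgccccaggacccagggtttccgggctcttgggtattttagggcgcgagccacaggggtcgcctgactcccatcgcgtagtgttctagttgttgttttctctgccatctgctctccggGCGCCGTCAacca
Ctsl: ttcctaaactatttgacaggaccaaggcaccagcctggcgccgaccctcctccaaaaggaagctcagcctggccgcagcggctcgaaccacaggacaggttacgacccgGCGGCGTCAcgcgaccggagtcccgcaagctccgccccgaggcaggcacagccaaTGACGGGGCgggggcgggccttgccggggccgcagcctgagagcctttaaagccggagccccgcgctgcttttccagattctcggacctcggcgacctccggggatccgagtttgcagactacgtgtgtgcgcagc
Ctss: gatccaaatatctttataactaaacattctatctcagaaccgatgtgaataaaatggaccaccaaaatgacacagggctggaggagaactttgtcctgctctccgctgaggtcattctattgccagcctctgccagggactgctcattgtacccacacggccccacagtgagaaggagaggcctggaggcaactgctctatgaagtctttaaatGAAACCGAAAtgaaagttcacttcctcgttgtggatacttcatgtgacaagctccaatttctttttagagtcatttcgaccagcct
Ctsd: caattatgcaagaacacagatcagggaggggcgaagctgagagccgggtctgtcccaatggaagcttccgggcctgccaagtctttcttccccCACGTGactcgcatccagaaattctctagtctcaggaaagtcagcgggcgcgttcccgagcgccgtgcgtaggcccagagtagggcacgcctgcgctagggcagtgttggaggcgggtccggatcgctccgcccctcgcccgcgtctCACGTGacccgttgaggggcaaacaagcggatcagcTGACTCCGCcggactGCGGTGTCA

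Promoters were matched by symbol for 8 of the 9 genes, all but Ctsb. TGACNNNGC was found in 4 of the 8 (Ctsa, Ctsc, Ctsd and Ctsl), against 12.1% of all 33469 promoters in the table. CACGTG was found in Ctsd alone among the 8, at 157 and at 10 bases before the start, against 6.42% of all promoters. The second of these lies within the longer palindrome TCACGTGA, which 0.777% of all promoters hold. The interferon-type motif was found in Ctss alone among the 8, 36 bases before the start, against 3.92% of all promoters. In Ctsl the 2 matches to TGACNNNGC lie 141 and 86 bases before the start. In the other 3 genes every match lies after it, at 37 bases in Ctsc, 30 in Ctsa, and 26 and 41 in Ctsd. The promoters of these 4 genes had a GC content of 59.3% to 66.7%, and the share over all promoters was not matched for GC content. Of the 3 promoters whose genes rose, Ctsl had a GC content of 66.7%, Ctsc 59.7% and Ctss 45.3%, with a median of 51.7% over all promoters. These matches describe the letters only, and binding was not measured.

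**Figure D1:**
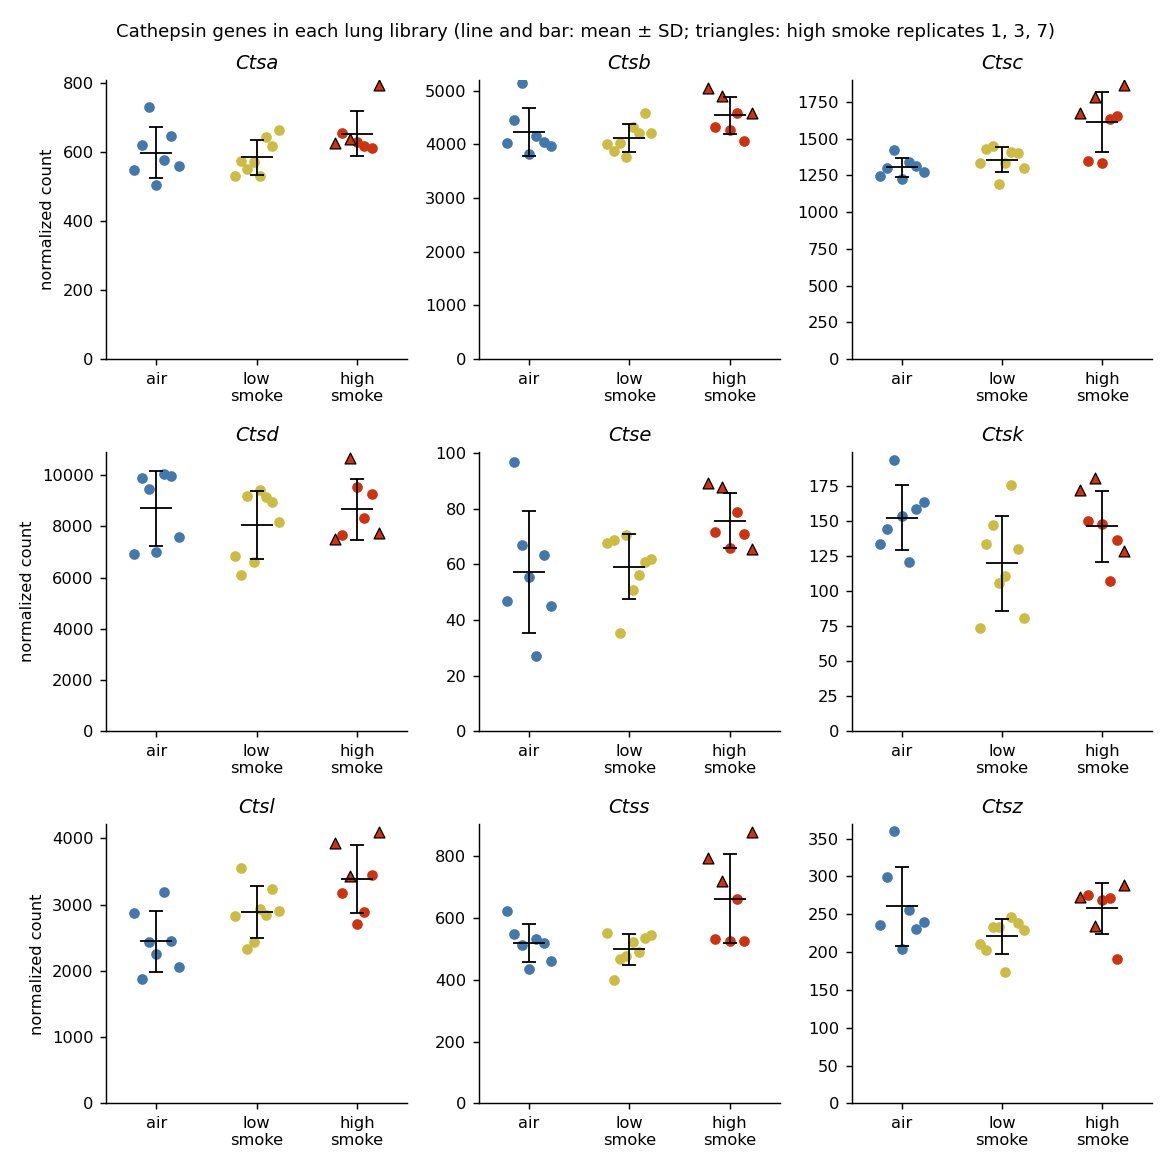
Normalized counts (linear y axis from 0) of the 9 cathepsin genes in each lung library, by group, with horizontal lines and bars for the mean ± SD and triangles for high smoke replicates 1, 3 and 7. The 3 triangles are the 3 highest high smoke values for Ctsc and Ctss, and no gene has 2 groups that do not overlap.

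Ctsl encodes cathepsin L, a cysteine endopeptidase with broad activity in lysosomes, and lies at chr17:1872848-1879280 on the minus strand of build rn6. Its normalized counts ran from 1879 to 3196 (median 2432) in air libraries, from 2325 to 3544 (median 2868) in low smoke libraries, and from 2709 to 4101 (median 3431) in high smoke libraries. All 7 high smoke libraries were above the air median and 4 were above every air library. High smoke libraries averaged 3383 ± 509, against 2448 ± 459 for air (SD, n = 7 each). That is a 1.39-fold rise (95% confidence interval 1.18 to 1.63, log2 difference 0.47 ± 0.113 SE, limma adjusted p = 0.00675). Low smoke, at 2880 ± 392 (SD, n = 8), lay between them. Its log2 difference from air was 0.24 ± 0.109 SE, which did not pass (limma adjusted p = 0.759, unadjusted p = 0.035). High smoke against low smoke, 0.23 ± 0.109 SE, did not pass either (limma adjusted p = 0.187).

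Ctsl passed in high smoke against air whichever single library was left out, with a log2 difference of 0.41 to 0.54 over the 22 fits. In 8 of these fits the library left out was a low smoke one, which cannot move this difference. The difference was 0.34 and did not pass without high smoke replicates 1, 3 and 7 (limma adjusted p = 0.225), and the call was lost by an exact rank-sum test (adjusted p = 0.0721). Those 3 libraries held 3431 to 4101 normalized counts and the other 4 high smoke libraries 2709 to 3445, so 1 of the other 4 lay within their range. As a share of the summed counts of the 9 genes, Ctsl made up 13.5% ± 2.51 under air, 16.2% ± 2.6 under low smoke and 16.9% ± 2.34 under high smoke (SD, n = 7, 8 and 7).

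Ctsc encodes cathepsin C, or dipeptidyl peptidase I, a cysteine protease that removes dipeptides from protein ends and thereby activates the serine proteases of neutrophil, mast cell and cytotoxic lymphocyte granules. The gene lies at chr1:151918571-151949984 on the plus strand of rn6. Its normalized counts ran from 1228 to 1424 (median 1304) in air libraries, from 1189 to 1450 (median 1371) in low smoke libraries, and from 1338 to 1868 (median 1658) in high smoke libraries. In high smoke 5 of the 7 libraries were above every air library and above every low smoke library, and the other 2 (replicates 2 and 4) lay within both ranges. The coefficient of variation was 12.6% in high smoke, against 5.05% in air.

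High smoke libraries averaged 1616 ± 203 normalized counts of Ctsc, against 1305 ± 65.9 for air (SD, n = 7 each), a 1.23-fold rise (95% confidence interval 1.11 to 1.36, log2 difference 0.30 ± 0.0706 SE, limma adjusted p = 0.00628). Against the low smoke mean of 1357 ± 85.2 (SD, n = 8) the rise was 1.18-fold (95% confidence interval 1.07 to 1.31, log2 difference 0.24 ± 0.0684 SE, limma adjusted p = 0.0358). In that comparison 6.78% of all genes tested passed, with 3.8% of all genes higher and 2.98% lower. Low smoke differed from air by 0.06 ± 0.0684 SE on the log2 scale (limma adjusted p = 0.927). The call against air held whichever single library was left out, and the call against low smoke held in 15 of 22 such fits. Of those 15, 7 left out air libraries, which cannot move the difference between high and low smoke. The call against low smoke was lost without low smoke replicate 1, 2, 4 or 8 or high smoke replicate 1, 3 or 7. The call against low smoke was also lost with libraries brought to 1 common total (limma adjusted p = 0.0696), with array weights (0.0503) and with only those 2 groups fitted (0.0532), and both calls were lost by an exact rank-sum test (adjusted p = 0.0566 against air and 0.159 against low smoke). Without high smoke replicates 1, 3 and 7, which held 1677 to 1868 normalized counts against 1338 to 1658 in the other 4, the log2 difference from air was 0.19 (limma adjusted p = 0.233) and that from low smoke 0.13 (limma adjusted p = 0.763).

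Ctss encodes cathepsin S, a cysteine protease of antigen-presenting cells that stays active at neutral pH. It lies at chr2:197655786-197679459 on the plus strand of rn6. Its normalized counts ran from 434 to 623.5 (median 521) in air libraries, from 400 to 552 (median 507) in low smoke libraries, and from 525.9 to 881 (median 663) in high smoke libraries. High smoke replicates 1, 3, 5 and 7 were above every air and every low smoke library. The remaining 3 held 525.9 to 532, within both ranges.

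High smoke libraries averaged 664 ± 143 normalized counts of Ctss, against 519 ± 61.1 for air (SD, n = 7 each), a 1.26-fold rise (95% confidence interval 1.08 to 1.48, log2 difference 0.33 ± 0.110 SE, limma adjusted p = 0.0397). Against 499 ± 50.8 in low smoke (SD, n = 8) it was 1.31-fold (95% confidence interval 1.13 to 1.53, log2 difference 0.39 ± 0.107 SE, limma adjusted p = 0.0333). That call passed in 15 of 22 fits with 1 library left out, 7 of which left out air libraries and could not move the difference. It was lost without low smoke replicate 1, 2, 3 or 4 or high smoke replicate 1, 3 or 7. It was also lost with array weights (limma adjusted p = 0.0567) and by an exact rank-sum test (adjusted p = 0.159). Low smoke differed from air by −0.06 ± 0.107 SE on the log2 scale (limma adjusted p = 0.958). Of the 3 calls against air, that of Ctss passed in the fewest fits, 14 of the 22 that left out a library. Of those 14, 8 left out low smoke libraries and could not move the difference. The call against air was lost without air replicate 2, 4, 6 or 7 or high smoke replicate 1, 3, 5 or 7, with a limma adjusted p of up to 0.107. It was also lost when each library was scaled to the same total (log2 difference 0.26, limma adjusted p = 0.0910), with array weights (0.28, limma adjusted p = 0.101), with only the 2 groups fitted (limma adjusted p = 0.0866) and by an exact rank-sum test (adjusted p = 0.17). High smoke replicates 1, 3 and 7 held 722 to 881 normalized counts and the other 4 held 525.9 to 663. Without those 3 the log2 difference was 0.12 from air (limma adjusted p = 0.653) and 0.17 from low smoke (limma adjusted p = 0.772).

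**Figure D2:**
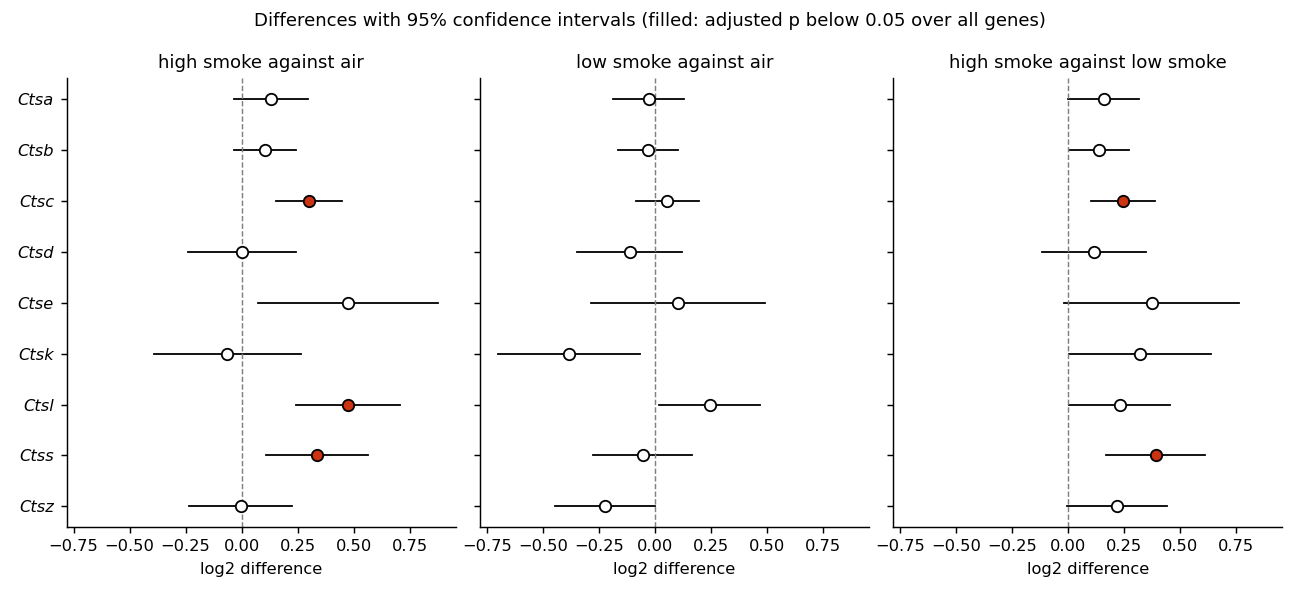
Log2 differences of the 9 cathepsin genes with 95% confidence intervals (x axis), with 1 panel each for high smoke and low smoke set against air and 1 for high smoke set against low smoke, filled where the limma adjusted p is below 0.05. Filled points are Ctsc, Ctsl and Ctss in the first panel and Ctsc and Ctss in the third, where all 9 points lie above 0.

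Ctsb and Ctsz encode the other lysosomal cysteine proteases of broad tissue expression, cathepsin B, which acts as endopeptidase and as dipeptide-releasing carboxypeptidase, and cathepsin Z, which removes single residues from the carboxyl end. Ctsb (chr15:46316741-46337613, plus strand) averaged 4228 ± 444 normalized counts under air, 4122 ± 263 under low smoke and 4536 ± 353 under high smoke (SD, n = 7, 8 and 7). The log2 difference of high smoke from air was 0.10 ± 0.0672 SE (limma adjusted p = 0.305). All 7 high smoke libraries, from 4059 to 5043, were above the air median of 4046, but none was above the highest air library, replicate 3, at 5134. Ctsz (chr3:172527107-172537878, minus strand) averaged 261 ± 52.4 under air, 221 ± 23.4 under low smoke and 258 ± 33.8 under high smoke. High smoke differed from air by −0.005 ± 0.112 SE on the log2 scale (limma adjusted p = 0.983), with a 95% confidence interval of −0.24 to 0.23. Of its low smoke libraries, which ran from 174 to 246, 2 were below every air library and the other 6 lay within the air range of 204.5 to 360. Low smoke differed from air by −0.22 ± 0.108 SE, which did not pass (limma adjusted p = 0.771, unadjusted p = 0.0506).

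Ctsk encodes cathepsin K, which cleaves collagen and elastin and is best known from osteoclasts (chr2:196655469-196666447, plus strand). Its normalized counts ran from 121 to 193 (median 154) in air libraries, from 73.9 to 176 (median 121) in low smoke libraries and from 107 to 181 (median 148) in high smoke libraries. In 4 of the 8 low smoke libraries Ctsk was below every air library, and the other 4 were within the air range. The difference of low smoke from air, −0.38 ± 0.154 SE on the log2 scale, was the furthest from 0 among the 9 genes in that comparison and did not pass (limma adjusted p = 0.724, unadjusted p = 0.0195). High smoke differed from air by −0.07 ± 0.159 SE (limma adjusted p = 0.819) and from low smoke by 0.32 ± 0.154 SE (limma adjusted p = 0.192).

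Neither of the aspartic proteases passed in any comparison. Ctsd encodes cathepsin D, the main aspartic protease of lysosomes (chr1:215541542-215553452, minus strand). It averaged 8701 ± 1450 normalized counts under air, 8049 ± 1340 under low smoke and 8678 ± 1190 under high smoke (SD, n = 7, 8 and 7), and the ranges overlapped over most of their length, with 6936 to 10060 under air, 6098 to 9405 under low smoke and 7502 to 10680 under high smoke. High smoke differed from air by 0.003 ± 0.117 SE on the log2 scale (limma adjusted p = 0.992), with a 95% confidence interval of −0.24 to 0.24. Ctse encodes cathepsin E, an endosomal aspartic protease of immune and epithelial cells (chr13:48426820-48449491, plus strand). Its normalized counts were 26.9 to 96.8 (median 55.5) under air, 35.4 to 70.6 (median 61.3) under low smoke and 65.3 to 89.1 (median 71.6) under high smoke. All high smoke libraries were above the air median, yet air replicate 2 was above them all. Its log2 difference of high smoke from air, 0.47 ± 0.195 SE, equalled that of Ctsl in size but had a wider interval (0.07 to 0.88) and did not pass (limma adjusted p = 0.0988, unadjusted p = 0.023). With air replicate 2 left out it did pass, at 0.61 (limma adjusted p = 0.0285).

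Ctsa encodes cathepsin A, a serine carboxypeptidase that also protects the lysosomal enzymes neuraminidase 1 and beta-galactosidase (chr3:161298962-161304626, plus strand). It averaged 598 ± 75 normalized counts under air, 585 ± 50.8 under low smoke and 653 ± 64.2 under high smoke (SD, n = 7, 8 and 7). High smoke differed from air by 0.13 ± 0.0794 SE on the log2 scale (limma adjusted p = 0.274). In high smoke, 6 libraries held 611 to 656 and replicate 7 held 795, above every other library of the study. In rn6 coordinates Ctsa overlaps Neurl2 and Pltp, both on the opposite strand, and since the sources used here do not say whether counting used the strand, reads of Ctsa and of these genes may not be fully separated. Ctsc overlaps LOC691427 and Ctsd overlaps Cttn, each on the same strand, so their reads may not be fully separated even with stranded counting. Ctsc, Ctsd, Ctsk and Ctss also overlap entries for small RNAs.

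In low smoke against air none of the 9 cathepsins passed, and neither did any of the 14414 genes (0%) by limma or by the rank-sum test. Without adjustment 923 genes had a limma p below 0.05, among them Ctsk and Ctsl. Of the 9 log2 differences 3 were above 0, with a median of −0.03 and a range of −0.38 to 0.24. In high smoke against low smoke, where the background was the 6.78% given above, Ctsc and Ctss rose (22.2% of the 9), none fell, and all 9 log2 differences were above 0, from 0.12 to 0.39 with a median of 0.23. High smoke against air and high smoke against low smoke share the high smoke libraries, and both comparisons with air share the air libraries. Summed over the 9 genes, normalized counts were 18270 ± 1970 under air, 17890 ± 1620 under low smoke and 20010 ± 1380 under high smoke (SD, n = 7, 8 and 7). As a share of all normalized counts in a library they made up 0.189% ± 0.0234 under air, 0.180% ± 0.0147 under low smoke and 0.196% ± 0.0103 under high smoke.

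**Figure D3:**
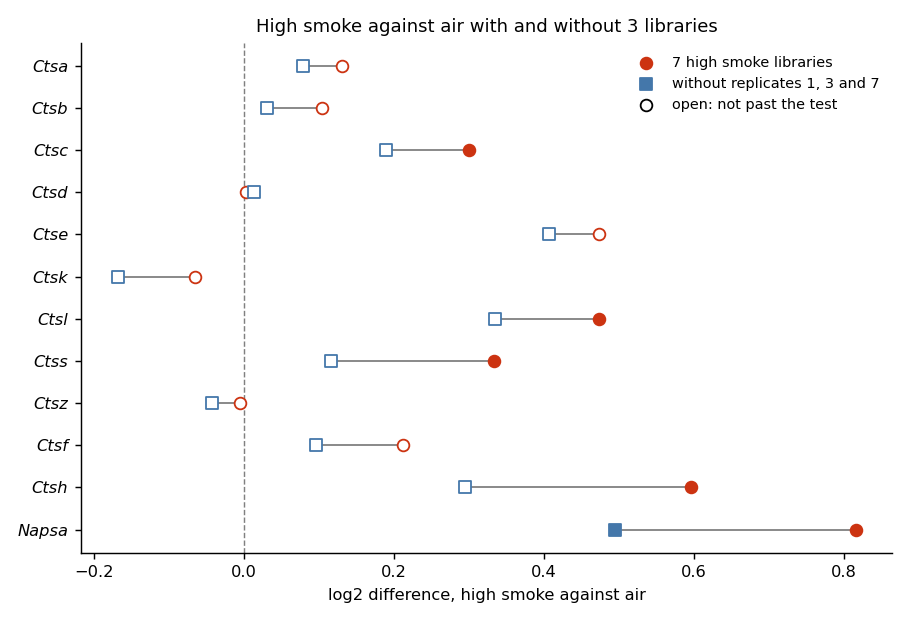
Log2 difference of high smoke against air (x axis) for the 9 cathepsin genes and, in the lowest 3 rows, Ctsf, Ctsh and Napsa. Circles use all 7 high smoke libraries, squares leave out replicates 1, 3 and 7, and filled marks have a limma adjusted p below 0.05. Without the 3 libraries Ctsc, Ctsl, Ctss and Ctsh lie closer to 0 and do not pass, and Napsa, at 0.50, still does.

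Without high smoke replicates 1, 3 and 7, 124 of the genes tested passed in high smoke against air (0.861%) and 0 in high smoke against low smoke. The 9 cathepsins then had a median log2 difference from air of 0.08, again with 7 above 0. Ctse, at 0.41, and Ctsl, at 0.34, had the highest values, and Ctsk, at −0.17, the lowest. Ctss moved the most of the 9, to 0.12 without the 3 libraries, against 0.33 with all of them. The 3 libraries and the other 4 high smoke libraries did not overlap for Ctsc and Ctss, and they did for the other 7 genes.

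Of the other cathepsins and napsin A listed for comparison, the table held Ctsf, Ctsh, Ctsw and Napsa, and all 4 were tested. Ctsh, the aminopeptidase that takes part in surfactant protein processing, averaged 11070 ± 3130 normalized counts under high smoke, against 7121 ± 891 under air (SD, n = 7 each), a 1.51-fold rise (log2 difference 0.60 ± 0.134 SE, limma adjusted p = 0.00462). Napsa, the aspartic protease of alveolar type 2 cells, averaged 1681 ± 485 in high smoke against 924 ± 84.2 in air, a 1.76-fold rise (log2 difference 0.82 ± 0.141 SE, limma adjusted p = 0.000799). All 7 high smoke libraries of Napsa, from 1067 to 2243, were above all 7 air libraries, from 763.5 to 1026, which holds for none of the 9 cathepsins. Both genes also rose against low smoke, Ctsh by 0.47 on the log2 scale (limma adjusted p = 0.0344) and Napsa by 0.62 (limma adjusted p = 0.0174). Both of these calls were lost without high smoke replicate 1, 3 or 7, and that of Ctsh also without low smoke replicate 1, 2, 3 or 4. By an exact rank-sum test Ctsh passed neither against air nor against low smoke (adjusted p = 0.0566 and 0.159). Napsa passed that test against air (adjusted p = 0.0311) but not against low smoke (0.0849). With high smoke replicates 1, 3 and 7 left out, Napsa differed from air by 0.50 (limma adjusted p = 0.0441) and Ctsh by 0.30 (limma adjusted p = 0.211). Ctsf (log2 difference 0.21 ± 0.0989 SE) and Ctsw (0.32 ± 0.251 SE), a protease of cytotoxic lymphocytes with 3.99 to 18.3 normalized counts, did not pass (limma adjusted p = 0.146 and 0.404).

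Transcripts of protease inhibitors were measured too. Of 6 tested inhibitor genes 2 rose and 1 fell in high smoke against air. That is 50%, beside 16.3% of all genes tested, and the median log2 difference was 0.22. Cst3, encoding the secreted inhibitor cystatin C, averaged 873 normalized counts in high smoke against 746 in air (log2 difference 0.22 ± 0.0715 SE, limma adjusted p = 0.036). Serpinb1a, an inhibitor of granule serine proteases, averaged 1441 in high smoke against 1111 in air (0.38 ± 0.117 SE, limma adjusted p = 0.0307). Cstb, encoding the intracellular inhibitor cystatin B, averaged 195 in high smoke against 259 in air (−0.40 ± 0.123 SE, limma adjusted p = 0.0272), and 4 of 7 high smoke libraries were below every air library. Each of the 3 calls was lost without high smoke replicates 1, 3 and 7, where the log2 differences were 0.14, 0.30 and −0.28 (limma adjusted p = 0.347, 0.345 and 0.371). With 1 library left out Cst3 passed in 16 of 22 fits (lost without air replicate 2, 4, 5 or 6 or high smoke replicate 1 or 7), Serpinb1a in 16 (lost without air replicate 1, 4 or 6 or high smoke replicate 2, 3 or 7) and Cstb in 18 (lost without air replicate 1 or 7 or high smoke replicate 1 or 7). With libraries brought to 1 common total the calls of Cst3 (0.15, limma adjusted p = 0.178) and Serpinb1a (0.30, limma adjusted p = 0.0634) were lost, and the fall of Cstb still passed (limma adjusted p = 0.0124).

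Of 13 genes for the sorting and activation of lysosomal enzymes, 1 rose and 2 fell in high smoke against air. That is 23.1%, beside 16.3% of all genes tested, and the median log2 difference was −0.03. M6pr, the cation-dependent mannose 6-phosphate receptor, averaged 1887 normalized counts in high smoke against 1392 in air (log2 difference 0.43 ± 0.132 SE, limma adjusted p = 0.0293). Gnptab, which encodes the enzyme subunits that begin the mannose 6-phosphate tag, averaged 972 in high smoke against 1198 in air (−0.31 ± 0.0786 SE, limma adjusted p = 0.0106). Gga3, an adaptor for receptor traffic out of the Golgi, averaged 402 in high smoke against 481 in air (−0.27 ± 0.0815 SE, limma adjusted p = 0.0238). M6pr passed in 17 of the 22 fits that left out a library (lost without air replicate 5 or 6 or high smoke replicate 1, 3 or 7), Gga3 in 21 (lost without high smoke replicate 3) and Gnptab in 22. With libraries brought to 1 common total M6pr lost its call (limma adjusted p = 0.0522), and Gnptab and Gga3 still passed (0.00368 and 0.011). None of the 3 passed without high smoke replicates 1, 3 and 7 together.

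Other lysosomal genes passed about as often as all genes tested. Of 31 lysosomal hydrolases 3 rose and 2 fell (16.1%, beside 16.3% of all genes), with a median log2 difference of 0.04. Fuca1, the lysosomal fucosidase, averaged 620 normalized counts in high smoke against 479 in air (log2 difference 0.36, limma adjusted p = 0.00664). Hexa (0.25), a subunit of the hexosaminidase that degrades gangliosides, rose too (limma adjusted p = 0.0371), and Galc (−0.32) and Rnaset2 (−0.38) fell (limma adjusted p = 0.0464 and 0.0425). The last 2 were named after their values were seen. Of 17 lysosomal membrane proteins and regulators 3 rose and none fell (17.6%), with a median of 0.07: the membrane glycoproteins Lamp1 (0.32, limma adjusted p = 0.0106) and Cd63 (0.32, limma adjusted p = 0.0151) and the cholesterol carrier Npc2 (0.48, limma adjusted p = 0.0357). Fuca1, Lamp1 and Cd63 passed in all 22 fits that left out a library, Hexa in 16, Npc2 in 14, Rnaset2 in 13 and Galc in 8. All of the last 4 were lost without high smoke replicate 1 and without high smoke replicate 3, and all but Galc without high smoke replicate 7. Each was also lost without some of the air replicates, among them replicate 4. With libraries brought to 1 common total Cd63, Hexa and Npc2 lost their calls (limma adjusted p = 0.0655, 0.093 and 0.0583), and the other 4 still passed. None of these 7 genes passed without the 3 high smoke libraries together.

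Genes for the class II pathway, in which cathepsin S acts, passed in 4 of 11 cases in high smoke against air, all higher. That is 36.4%, beside 16.3% of all genes tested, and the median log2 difference was 0.35. RT1-DMb, a chain of the molecule that loads peptides onto class II, averaged 204 normalized counts in high smoke against 95.8 in air (log2 difference 1.06 ± 0.16 SE, limma adjusted p = 0.000326), and the groups did not overlap. The class II chains RT1-Bb (0.52, limma adjusted p = 0.00247) and RT1-Db1 (0.33, limma adjusted p = 0.0172) rose too, as did RT1-Da (0.41, limma adjusted p = 0.0336), which was named after its value was seen. The RT1 genes form a multigene family, so reads may have been split among its members. The same 4 genes rose in high smoke against low smoke, where 6.78% of all genes tested passed. RT1-DMb did so in 22 of 22 fits that left out a library, RT1-Bb in 19, RT1-Da in 10 and RT1-Db1 in 8. Against air, RT1-Da alone of the 4 lost its call in such fits, without air replicate 4, 5 or 6 or high smoke replicate 1, 3 or 7. With libraries brought to 1 common total RT1-Db1 and RT1-Da lost their calls against air (limma adjusted p = 0.0725 and 0.0537) and RT1-Db1 that against low smoke (0.096). Without high smoke replicates 1, 3 and 7, RT1-DMb still passed against air (0.75, limma adjusted p = 0.0251), and the other 3 did not. Of the serine proteases that cathepsin C activates, 5 were tested (Gzma, Gzmk, Gzmm, Cma1 and Tpsb2) and none passed, with a median log2 difference of −0.03. Its listed neutrophil targets were not tested, since Prtn3 was below the level filter and Elane was not found. Cma1 (0.60 ± 0.389 SE), Tpsb2 (0.17 ± 0.476 SE) and Gzmk (−0.10 ± 0.276 SE) had adjusted p-values by limma of 0.304, 0.843 and 0.843.

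**Figure D4:**
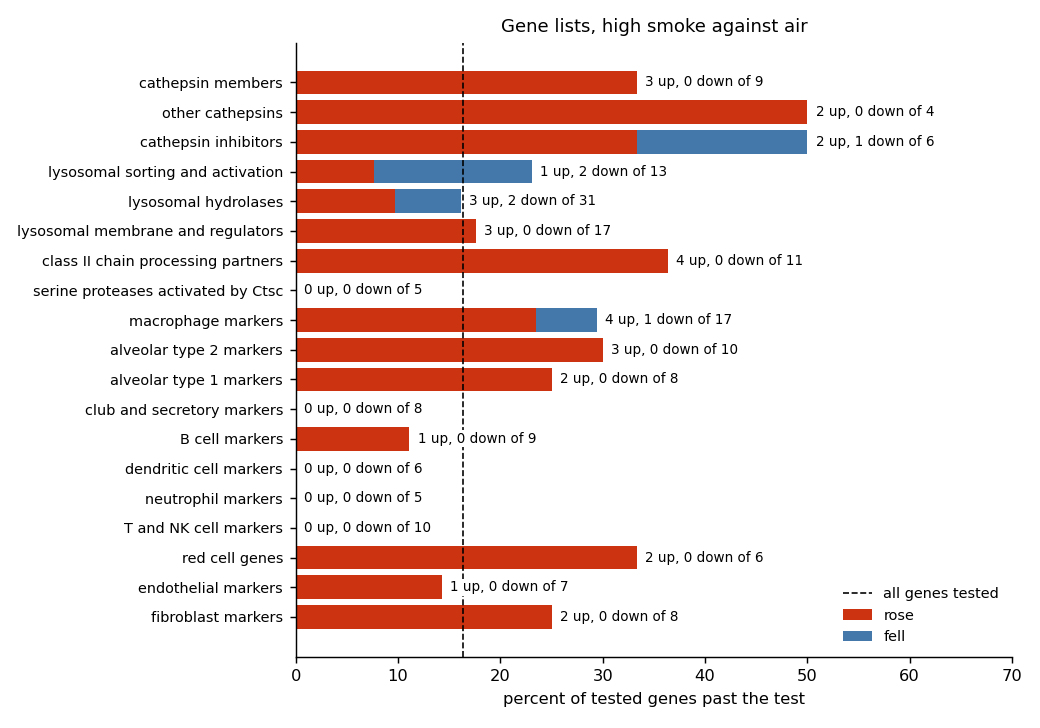
Percent of tested genes that passed in high smoke against air (x axis), higher in red and lower in blue, for the 9 cathepsins and 18 other gene lists, with counts beside each bar and a dashed line at 16.3%, the share of all genes tested. The cathepsins stand at 3 up and 0 down of 9, and the neutrophil, dendritic cell, T and NK cell and club cell lists at 0.

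Markers of cells that express cathepsins were looked at as well. Of 17 tested macrophage markers 4 rose and 1 fell in high smoke against air. That is 29.4%, beside 16.3% of all genes tested. The median log2 difference of the 17 was 0.06, with 11 above 0. The complement genes C1qb (0.79 ± 0.157 SE, limma adjusted p = 0.002), C1qa (0.64 ± 0.183 SE, limma adjusted p = 0.0188) and C1qc (0.42 ± 0.127 SE, limma adjusted p = 0.0276) rose, with Trem2 (0.69, limma adjusted p = 0.0312). Cd68, a lysosomal membrane protein of macrophages, fell (−0.41, limma adjusted p = 0.0439). The last 2 were named after their values were seen. C1qb passed in 22 of 22 fits that left out a library, C1qa in 21 (lost without high smoke replicate 1), C1qc in 19 (lost without air replicate 4 or high smoke replicate 3 or 7), Trem2 in 16 (lost without air replicate 4, 5 or 6 or high smoke replicate 1, 3 or 7) and Cd68 in 10 (lost without any of 12 libraries drawn from all 3 groups). C1qc also lost its call with libraries brought to 1 common total (limma adjusted p = 0.0574). The summed counts of the 19 macrophage markers in the table were 68160 to 99400 in high smoke and 63720 to 80790 in air. The macrophage markers that passed averaged from 42.9 (Trem2) to 325 (C1qa) in high smoke, so other genes carried most of this sum. Lyz2 was on this list and on that of the alveolar type 2 markers, so the sum is not particular to macrophages. Of 10 alveolar type 2 markers 3 rose (30%) and none fell, Sftpc by 0.69, Sftpd by 0.38 and Napsa as given above. The median of the 10 was 0.06, with 9 above 0. Of 8 alveolar type 1 markers 2 rose (25%), Ager by 0.69 and Hopx by 0.36, and none passed as lower. Only 4 of these 8 lay above 0, with a median of 0.07 and a range of −0.29 to 0.69. No macrophage marker, no type 1 marker and no type 2 marker other than Napsa passed without high smoke replicates 1, 3 and 7. The part of these cells in the cathepsin differences was not tested.

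In high smoke against air 16.3% of all genes tested passed. Of the remaining cell types, 1 of 9 tested B cell markers (11.1%) and 1 of 7 endothelial markers (14.3%) rose. So did 2 of 8 fibroblast markers (25%) and 2 of 6 red cell genes (33.3%), and no gene of these lists passed as lower. All of these calls were lost without high smoke replicates 1, 3 and 7. None of 5 neutrophil, 6 dendritic cell, 10 T and NK cell and 8 club cell markers passed. Summed counts of the B cell markers were 1405 to 2453 in high smoke and 776 to 1879 in air, those of the neutrophil markers 242 to 513 in high smoke and 242.5 to 569 in air, and those of the T and NK cell markers 608 to 1079 in high smoke and 428 to 985 in air. Summed counts of the red cell genes were 7112 to 14590 in high smoke and 4833 to 7162 in air. No marker in the table was at 0 in every library. In low smoke against air no gene of any list passed.

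**Figure D5:**
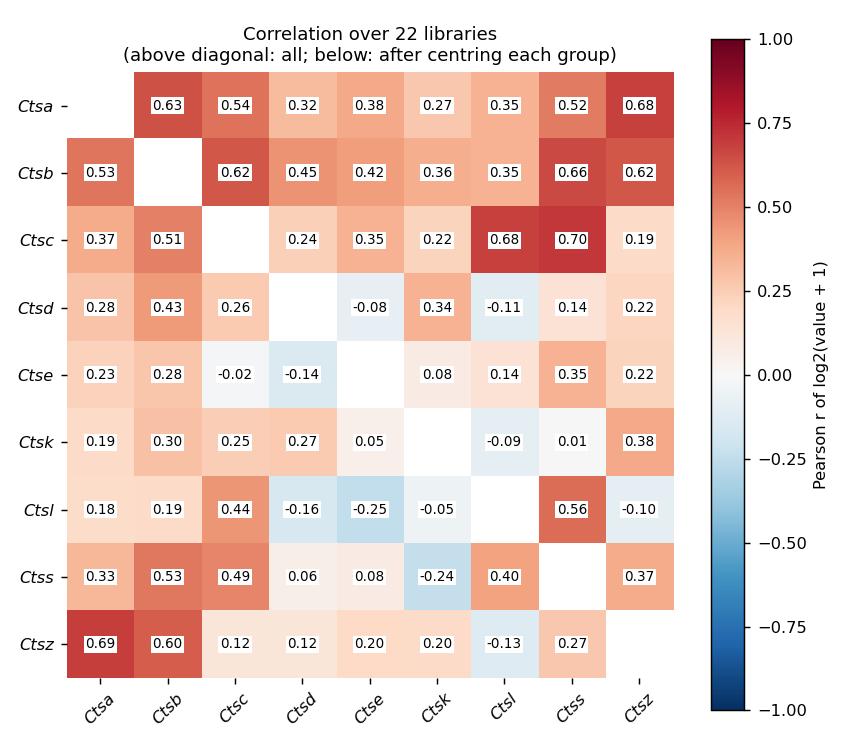
Pearson correlation of log2(value + 1) between pairs of the 9 cathepsin genes over 22 libraries, above the diagonal as measured and below it after centring each group on its mean, on a colour scale from −1 to 1. Ctsa with Ctsz has 0.68 above the diagonal and 0.69 below it, and Ctsc with Ctss has 0.70 and 0.49.

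Among the 9 genes, 32 of the 36 pairs had a correlation above 0 over the 22 libraries, with a median Pearson r of 0.349. After each group was centred on its mean the median was 0.237, and without high smoke replicates 1, 3 and 7 it was 0.213. All pairs share the libraries and their scaling, and the values are a description. The pairs with the highest centred correlation were Ctsa with Ctsz (0.692) and Ctsb with Ctsz (0.602), and none of these 3 genes rose in high smoke. Without high smoke replicates 1, 3 and 7 these 2 values were 0.712 and 0.675. Ctsc and Ctss, which rose together, had r = 0.704 over all libraries but a Spearman rho of 0.357. Without the 3 libraries their r was 0.23 over the other 19. Ctsc and Ctsl had r = 0.680, rho = 0.662 and, without the 3, r = 0.457.

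For the 3 cathepsins that rose, the genes with the most similar pattern over the 22 libraries were looked up among 10397 others with a mean of at least 50. They were Smpd2 (r = 0.898), Pnp (0.898) and Rpl11 (0.889) for Ctsc, Rbmx2 (0.903), Supt5h (0.890) and Gsn (0.882) for Ctsl, and Mak16 (0.882), Med28 (0.863) and Itm2c (0.853) for Ctss. Spearman rho for these pairs was 0.790 to 0.907 for Ctsc, 0.894 to 0.927 for Ctsl and 0.589 to 0.744 for Ctss. Without high smoke replicates 1, 3 and 7, r was 0.763 to 0.837 for Ctsc, 0.832 to 0.857 for Ctsl and 0.548 to 0.637 for Ctss. After each group was centred on its mean, r was 0.758 to 0.792 for Ctsc, 0.786 to 0.829 for Ctsl and 0.761 to 0.838 for Ctss. As the highest of 10397, these values are high by selection. All of these genes but Mak16 also passed as higher in high smoke against air. No other cathepsin is among these 9 similar genes.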

How the data were processed

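RNA sequencing values of 22 rat lung libraries (7 air, 8 low smoke, 7 high smoke) were analysed. Per the labels' protocols, 24 rats were randomized, 8 per group, about 35 mg of lung was taken from each, and 1 µg of RNA with an integrity number of at least 9.0 went into each library. The labels list 23 samples. High smoke replicate 8, marked as removed for quality, was not analysed here. The deposited table holds a signal per gene, namely counts that the authors scaled with 1 size factor for each library. STAR 2.7.3a, build rn6, Partek and DESeq2 are named in the submitters' processing notes. Only 80.7% to 82.8% of values under 200 reads lay within 0.02 of a whole number of reads, so whole counts were not recovered and a count model was not used. Depth, 8484131 to 12055527 read equivalents per library, limits the precision of low genes most.

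Values were taken as log2(value + 1), which understates fold changes of low genes. Genes with a mean of at least 10 (14414) were fitted with limma 3.58.1 in R 4.3.3, all 3 groups in 1 model with an intensity trend, two-sided, with Benjamini-Hochberg adjustment over all tested genes and a threshold of 0.05. Folds are 2 to the power of the log2 difference. The model was tested on simulated data. Replicates are separate rats. The members, the 18 other gene lists (234 genes, of which 199 were found by symbol, 2 by alias and 33 unmatched), the tests and the alternatives were chosen with earlier results of these data known. Named genes were every member, every other cathepsin in the table, the 3 genes of each list with the smallest p in high smoke against air, and the 3 genes most correlated with each of the 3 members with the smallest p. Not all genes this rule selects are printed. Alternatives were 2 other pseudocounts (0.5 and 5), 2 other level filters, 3 other scalings, robust shrinkage, array weights, a fit of only the 2 groups compared, an exact rank-sum test (scipy 1.17.1), and leaving out 3 libraries together or each library in turn. Leaving out a library of the group not compared changes only the shared spread, the level filter and the adjustment. It does not move the difference, so such fits test a call less than the others do. Coordinates of genes are from the deposited table (rn6), promoters from RefSeq (GRCr8).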

Additional observations from a re-analysis of the deposited data

Results flagged for a closer look

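Ctsa in high smoke replicate 7 held 794.5 normalized counts, while the other 6 high smoke libraries held 611 to 656. The gap to the nearest library was 0.755 of the range of the group, more than the critical value of Dixon's test for 7 samples. This was the only such library among 39 sets of 1 gene in 1 group (12 cathepsins and napsin A in 3 groups), and about 1 in 20 such sets goes past it by chance. Ctsa did not pass in any comparison, and without this library its log2 difference of high smoke from air was 0.083 (limma adjusted p = 0.522), beside 0.13 with all libraries.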

How the results depend on the processing

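No paired analysis was possible because no label ties a library of 1 group to a library of another. Of 918 values of 1 gene under 1 alternative, 858 kept direction and side of the threshold, 39 lost the call, 1 gained it and 20 changed sign. Most of the 918 belong to genes and comparisons without a call, which had none to lose. Each call was seen under 22 fits with 1 library left out and 12 other alternatives. Against air it was lost under 2 of these for Ctsc, 2 for Ctsl and 13 for Ctss. Against low smoke it was lost under 12 for Ctsc and 10 for Ctss. The count of cathepsins called in high smoke against air, 3 as reported, was 0 without high smoke replicates 1, 3 and 7 and 0 by the exact rank-sum test (adjusted p = 0.0566 for Ctsc, 0.0721 for Ctsl and 0.17 for Ctss), and 2 to 3 with 1 library left out. It was 2, without Ctss, with libraries scaled to the same total, with array weights and with only the 2 groups fitted. In high smoke against low smoke the count of 2 became 1, without Ctsc, with libraries scaled to the same total and with only the 2 groups fitted, 0 with array weights, without the 3 libraries and by the exact rank-sum test, and 0 to 2 with 1 library left out. In low smoke against air it was 0 throughout. Values near 0 changed sign. In high smoke against air, Ctsd was −0.073 scaled to the total, −0.018 scaled to the upper quartile and −0.016 centred on the median, and −0.049 to 0.041 with 1 library left out. Ctsk was −0.12 to 0.0057 with 1 library left out, and Ctsz 0.062 with array weights and −0.059 to 0.076 with 1 library left out. In low smoke against air, array weights gave 0.022 for Ctsa and 0.0056 for Ctsb, and leaving out 1 library gave −0.067 to 0.021 for Ctsa, −0.057 to 0.015 for Ctsb and −0.060 to 0.24 for Ctse. Over all genes, high smoke against air called 1327 higher and 1016 lower as reported, 894 and 1797 scaled to the total, 1363 in all with only 2 groups fitted, and 1453, 1461 and 1550 without high smoke replicate 1, 3 or 7. High smoke against low smoke called 977 genes as reported and 35, 51 and 29 without the same 3 libraries, 316, 296, 550 and 399 without low smoke replicate 1, 2, 3 or 4, and 1651 and 1575 without high smoke replicate 4 or 6. The exact rank-sum test called 746, 0 and 183 genes. The causes were not tested.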
